A study of Mus musculus with 10 samples.

Results

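Mef2c, Gata4 and Tbx5 are the transcription factor genes abbreviated MGT in the labels of the reprogrammed samples, and they were taken from the deposited table by their gene symbols, which gave 3 of 21513 genes. All 3 passed the filter on low counts, as did 15740 genes in all. The study read polyadenylated RNA of heart cells from newborn mice in 10 libraries, 2 for each of 5 groups. Primary cardiomyocytes (CM) date from day 3. The induced cells (iCM, for induced cardiomyocyte-like), which are fibroblasts given MGT, date from day 14 with ZLN005 (known as an activator of Ppargc1a transcription), with GW501516 (known as an agonist of the nuclear receptor PPARδ) or with dimethyl sulfoxide (DMSO, the solvent). Cardiac fibroblasts (CF) were taken at day 14. The labels call all samples wild type primary cells from hearts of pups aged 1 to 3 days after birth, with no transgene named. The labels do not name a vector or solvent for CF, a dose for either compound, or the vector and gene forms behind MGT. CM differ from all other groups in day as well as in cell type, and 2 label fields of the CM samples repeat the fibroblast entries while their titles say cardiomyocyte. Whether the paired libraries of a group stem from different animals or dishes is not stated, so p-values rest on a spread between replicate libraries, pooled over the 5 groups, that may be technical.

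In the mammalian heart MEF2C, a MADS-box factor, GATA4, a zinc finger factor, and TBX5, a T-box factor, bind enhancers of muscle genes and are known to act together there. Their forced expression is the classic way to turn cardiac fibroblasts into cells with cardiac features, and the balance between the 3 proteins is known to affect how well this works. Fibroblasts of the heart are known to express GATA4 and other cardiac factors of their own. In these libraries a read from a delivered copy and a read from the cell's own gene fall in the same count, so a level below is the sum of both. The sums also come from mixed cells, in which more cells of a kind and more RNA per cell cannot be told apart.

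Total counts ran from 39065969 to 61886463 per library. Replicates correlated at 0.984 (CF) to 0.993 (iCM with DMSO) over log2 levels of all genes tested, and CF replicates differed most. The summed level of 5 cardiomyocyte markers (Myh6, Tnnt2, Ryr2, Actn2 and Ttn), in CPM (counts per 1000000 counts of the library), was 18860 to 19165 in CM, 6609 to 7051 in iCM with ZLN005, 6986 to 7052 with GW501516, 4080 to 4179 with DMSO, and 324 to 473 in CF. The 5 fibroblast markers summed to 8891 to 8992 CPM in CM, 7401 to 7613, 9187 to 9372 and 12630 to 12969 CPM in iCM in the same order of compounds, and 22300.5 to 23824 CPM in CF. The 8 macrophage markers summed to 14.6 to 16.5 CPM in CM, 31.1 to 32.0 in iCM with ZLN005, 33.8 to 36.0 with GW501516, 308 to 311 with DMSO, and 1151 and 137 in CF replicates 1 and 2. The 5 smooth muscle markers summed to 3469 to 3926 CPM in CM and iCM, and 1333 to 1799 in CF, and the 5 endothelial markers to 74.7 to 80.1 CPM in CM, 27.0 to 34.2 in iCM, and 91.7 and 49.5 in CF. No marker of these lists was at 0 in any library, and their part in the results was not tested.

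The genes lie on GRCm38 (mm10) on 3 chromosomes, in GENCODE coordinates. Mef2c spans chr13:83504034-83667080 on the plus strand, Gata4 chr14:63198922-63271692 on the minus strand, and Tbx5 chr5:119832668-119885219 on the plus strand. Of the 50-base stretches of their annotated transcripts, 0 of 16316 from Mef2c, 0 of 3944 from Gata4 and 17 of 4620 from Tbx5 (0.368%) also occurred in transcripts of another gene. The Tbx5 stretches were shared with transcripts of 505 other genes. The longest coding sequence was 1452 bases in Mef2c, 1326 in Gata4 and 1554 in Tbx5, while all annotated exons together covered 15715, 3904 and 4675 bases.

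Promoters from RefSeq (GRCm38.p6, 250 bases before to 50 after a start) were at hand for 3 starts of Mef2c. The promoter of its second start, at chr13:83523406-83523705 on the plus strand, is shown because it alone held a motif of the 3 factor families. The match to the T-box motif AGGTGT is in capitals and begins 216 bases before the start.
Mef2c, second start: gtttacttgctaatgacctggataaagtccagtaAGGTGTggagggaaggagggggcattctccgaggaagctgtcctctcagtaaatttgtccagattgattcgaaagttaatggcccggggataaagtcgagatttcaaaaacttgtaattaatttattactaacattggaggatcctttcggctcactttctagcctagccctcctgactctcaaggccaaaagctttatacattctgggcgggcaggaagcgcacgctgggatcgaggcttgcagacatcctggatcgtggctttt
The search used both strands, AGGTGT for T-box factors, AGATAA or else AGATAG for GATA factors (also with T as the first letter, TGATAA or else TGATAG), and the MEF2 motif. Of 32851 promoters of this length, 13.7% held the T-box motif, 29.8% a GATA motif and 3.19% the MEF2 motif. The match is a description of these letters and not a sign of binding.

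Tbx5 had the widest range of the 3 genes. It stood at 102 and 99.5 CPM in CM, 572 and 579.9 CPM in iCM with ZLN005, 503 and 531 CPM in iCM with GW501516, 546 and 504 CPM in iCM with DMSO, and 3.13 and 2.94 CPM in CF. The CF values rest on 191 and 182 counts. The groups fell on 3 separate levels, with CF near the bottom of the scale, CM in between and all 6 iCM libraries on top. Among the iCM libraries, those with ZLN005 were above the other 4, and the ranges with GW501516 and DMSO overlapped.

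Gata4 was present in every group. It stood at 200.03 and 191 CPM in CM, 468 and 487 CPM in iCM with ZLN005, 439 and 444 CPM in iCM with GW501516, 384 and 379.6 CPM in iCM with DMSO, and 156 and 161 CPM in CF. No ranges of 2 groups overlapped, and the order from the top was ZLN005, GW501516, DMSO, CM and CF.

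Mef2c followed the same broad order with more overlap. It stood at 157 and 150.3 CPM in CM, 467 and 520.0 CPM in iCM with ZLN005, 419.8 and 454 CPM in iCM with GW501516, 478 and 441 CPM in iCM with DMSO, and 101 and 86.8 CPM in CF. The range with DMSO overlapped that with each compound, so the iCM groups had no clear order for this gene. The higher CF value came from replicate 1, the library whose macrophage markers summed to 1151 CPM against 137 CPM in replicate 2. In replicate 1 Tbx5 was also higher (3.13 against 2.94 CPM) and Gata4 lower (156 against 161 CPM). The part of macrophages in these values was not tested.

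**Figure D1:**
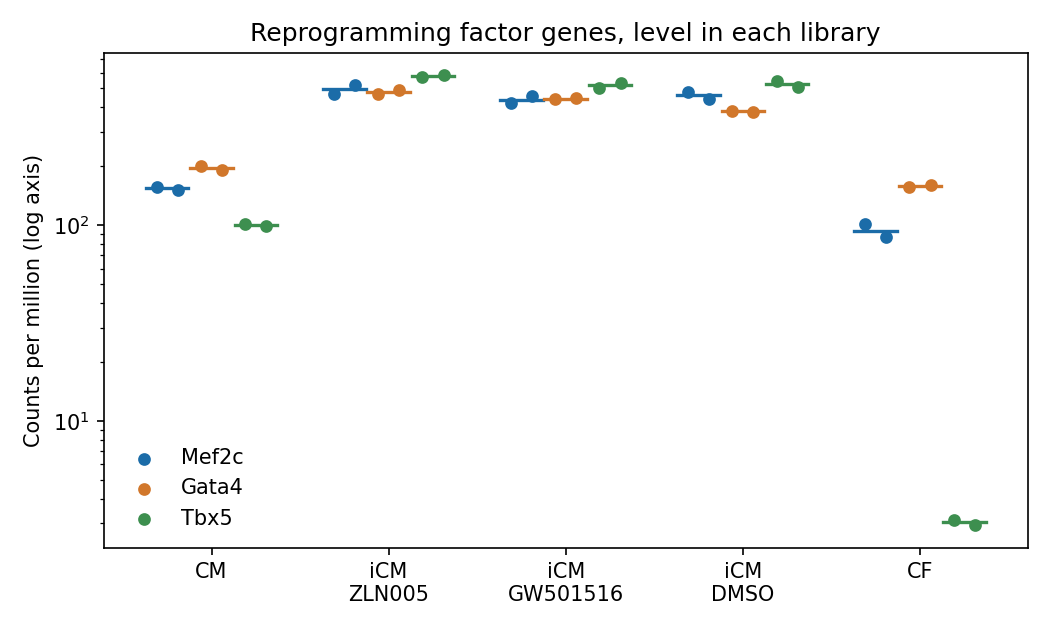
Level of each gene in CPM on a log axis, with a point per library and a line at the mean of the 2 libraries of a group. All 3 genes were highest in the iCM groups, where they lay between 379.6 and 579.9 CPM, and Tbx5 was near 3 CPM in CF.

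All 3 genes rose in iCM relative to CF, whichever compound was given. In iCM with DMSO the mean was 459 ± 26 CPM for Mef2c, 382 ± 2.9 for Gata4 and 525 ± 29 for Tbx5, against 93.8 ± 9.8, 158 ± 3.6 and 3.04 ± 0.13 CPM in CF (SD, n = 2 each). The log2 change was 7.44 ± 0.07 for Tbx5, a 174-fold rise (SE, adjusted p = 9.1e-13, by edgeR's quasi-likelihood test with Benjamini-Hochberg adjustment over all genes tested, as for all adjusted p-values below). It was 2.30 ± 0.08 for Mef2c, 4.93-fold (adjusted p = 3.1e-09), and 1.28 ± 0.05 for Gata4, 2.42-fold (adjusted p = 1.7e-08). In this comparison 19.9% of the 15740 genes tested were higher in iCM, and the median log2 change over all of them was -0.01. Because the samples labelled MGT were given these genes, this rise is a check of the labels.

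The same rises with the compounds were 186-fold for Tbx5, 5.18-fold for Mef2c and 2.96-fold for Gata4 in iCM with ZLN005. They were 174-fold, 4.78-fold and 2.85-fold in iCM with GW501516. Of all genes tested, 24% were higher than in CF with ZLN005 and 23.9% with GW501516. The comparisons share the CF libraries and so are not independent of each other. Without CF replicate 1 the log2 changes of Mef2c, Gata4 and Tbx5 in iCM with DMSO were 2.39, 1.23 and 7.47.

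Against the induced cells, primary cardiomyocytes held less RNA of all 3 genes. Relative to iCM with DMSO, Tbx5 fell by 2.32 on the log2 scale in CM (SE 0.05, adjusted p = 1.1e-10), which is 4.99-fold lower. Mef2c fell by 1.51 (SE 0.07, adjusted p = 2.7e-08), 2.86-fold lower, and Gata4 fell by 0.90 (SE 0.05, adjusted p = 9.8e-08), 1.87-fold lower. In this comparison 35.7% of all genes tested were lower in CM. Against iCM with ZLN005 the 3 genes were 5.35-fold (Tbx5), 2.999-fold (Mef2c) and 2.28-fold (Gata4) lower in CM, where 67.9% of genes were called and 33.7% were lower, and against iCM with GW501516 4.997-fold, 2.77-fold and 2.20-fold, where 67.2% were called and 33.5% were lower.

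The native cells differed most in Tbx5. Relative to CF, the level in CM was 34.9-fold higher for Tbx5 (log2 change 5.12 ± 0.07, adjusted p = 1.9e-12), 1.73-fold for Mef2c (0.79 ± 0.07, adjusted p = 3.7e-06) and 1.298-fold for Gata4 (0.38 ± 0.05, adjusted p = 7.8e-05). Of all genes tested, 70.7% were called between CM and CF, 34.5% higher and 36.2% lower in CM. All CM libraries were above all CF libraries for each gene.

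**Figure D2:**
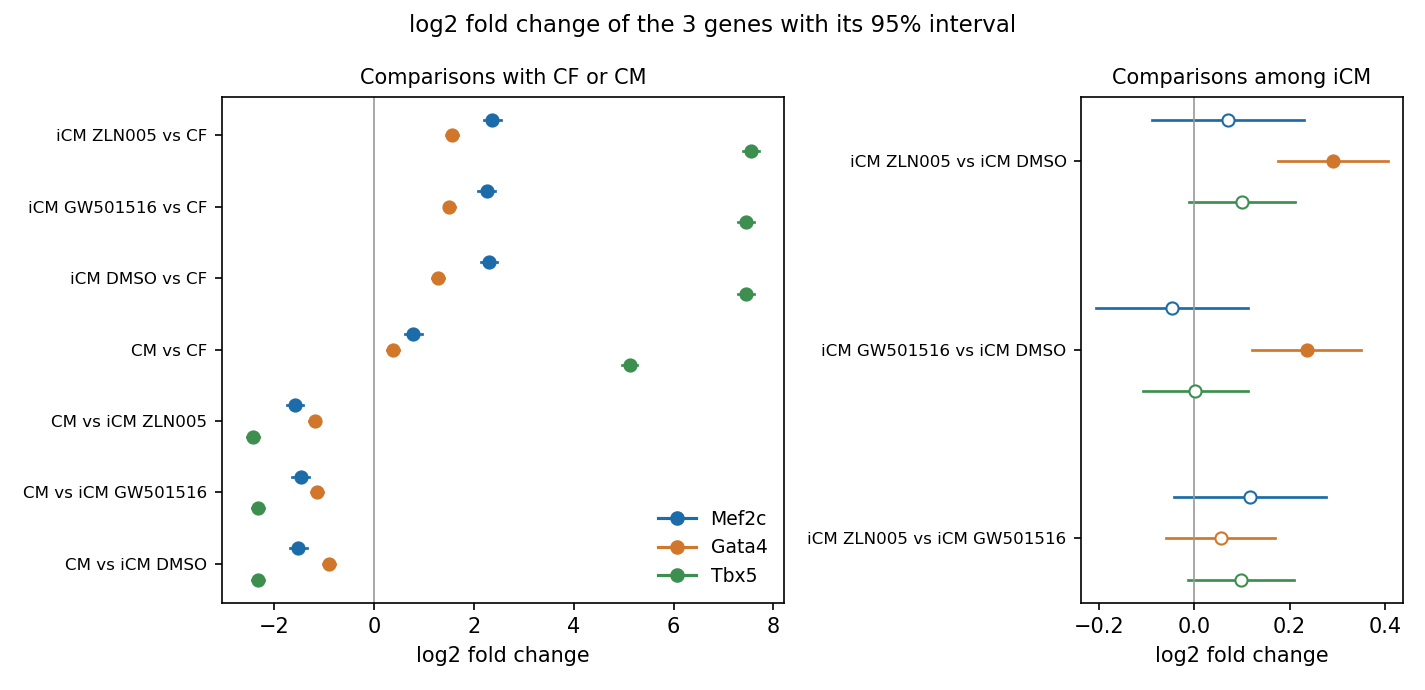
log2 fold change of the 3 genes in each comparison, with the group named first over the group named after it, and the 95% interval as a line. Filled points passed the test at an adjusted p of 0.05, open points did not, and the panels have different scales. Among the iCM groups Gata4 alone has filled points, at 0.29 with ZLN005 and 0.24 with GW501516 against DMSO.

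Of the 3 genes, Gata4 alone passed the test with the compounds, a difference between genes that was itself not tested. Its mean was 478 ± 13 CPM in iCM with ZLN005 and 441 ± 3.9 CPM with GW501516, against 382 ± 2.9 CPM with DMSO (SD, n = 2 each). The log2 change was 0.29 ± 0.05 with ZLN005, 1.22-fold higher (SE, 95% interval 0.18 to 0.41, adjusted p = 0.0041). It was 0.24 ± 0.05 with GW501516, 1.18-fold higher (95% interval 0.12 to 0.35, adjusted p = 0.0128). Of all genes tested, 15.5% were called with ZLN005 and 14.8% with GW501516, with 6.64% higher and 8.84% lower for ZLN005 and 7.8% higher and 6.96% lower for GW501516. The call with GW501516 was lost when any of its 4 libraries was left out (adjusted p = 0.0695 to 0.105), while that with ZLN005 held under all 19 alternatives.

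Mef2c averaged 493 ± 38 CPM with ZLN005 and 437 ± 24 with GW501516, against 459 ± 26 CPM with DMSO, and passed the test with neither. Its log2 change was 0.07 ± 0.07 with ZLN005 (95% interval -0.09 to 0.23, adjusted p = 0.58) and -0.05 ± 0.07 with GW501516 (95% interval -0.21 to 0.11, adjusted p = 0.73). For Tbx5 the change was 0.10 ± 0.05 with ZLN005 (95% interval -0.01 to 0.21, adjusted p = 0.22) and 0.003 ± 0.05 with GW501516 (95% interval -0.11 to 0.11, adjusted p = 0.99). The Tbx5 call with ZLN005 depended on the libraries in the fit, since it passed with the libraries of those groups alone (0.10, adjusted p = 0.0349), without CF replicate 1 (0.11, adjusted p = 0.0365) and without CF replicate 2 (0.10, adjusted p = 0.0452). The intervals leave room for changes of up to 1.17-fold in Mef2c and 1.16-fold in Tbx5 with ZLN005.

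Between the compounds themselves none of the 3 genes passed the test, in a comparison where 5.06% of all genes did (1.54% higher and 3.52% lower with ZLN005). The log2 change with ZLN005 over GW501516 was 0.12 ± 0.07 for Mef2c (95% interval -0.04 to 0.28, adjusted p = 0.47), 0.06 ± 0.05 for Gata4 (-0.06 to 0.17, adjusted p = 0.67) and 0.10 ± 0.05 for Tbx5 (-0.013 to 0.21, adjusted p = 0.36). At an unadjusted p of 0.05 the count was 0 of 3 too, and it was 0 of 3 by DESeq2 and limma at an adjusted p of 0.05. With the libraries of both compounds alone Tbx5 passed (0.10, adjusted p = 0.0193). The doses are not given in the labels, so equal exposure cannot be assumed.

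The 3 genes together took 459 and 441 CPM in CM, 1507 and 1587 CPM in iCM with ZLN005, 1362 and 1429 CPM with GW501516, 1407 and 1325 CPM with DMSO, and 259.6 and 250.6 CPM in CF. Both libraries with ZLN005 were above the other 4 iCM libraries, and those with GW501516 and DMSO overlapped. The division of these sums among the 3 genes differed between the native cells and iCM. Of their summed counts, Tbx5 took 22.2% and 22.6% in CM, 36.5% to 38.0% with ZLN005, 37.0% to 37.1% with GW501516, 38.1% to 38.8% with DMSO, and 1.17% to 1.21% in CF. Gata4 took 43.3% to 43.6% in CM, 30.7% to 31.1% with ZLN005, 31.1% to 32.2% with GW501516, 27.3% to 28.6% with DMSO, and 59.99% to 64.2% in CF. The share of Mef2c was 30.8% to 38.8% in all 10 libraries, so the groups differed mainly in how Gata4 and Tbx5 divided the rest.

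**Figure D3:**
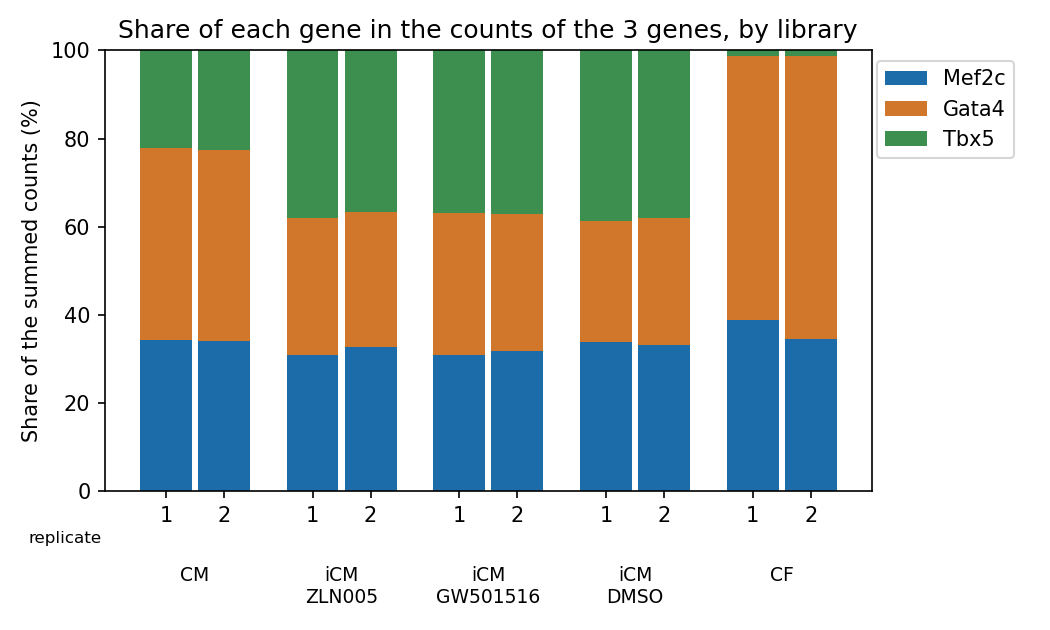
Share of each gene in the summed counts of Mef2c, Gata4 and Tbx5, with a bar per library. Tbx5 holds at most 22.6% in CM and 38.8% in iCM, against 1.21% in CF.

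The ratio of Mef2c to Gata4 counts was 0.786 ± 0.0013 in CM, 1.03 ± 0.050 with ZLN005, 0.990 ± 0.047 with GW501516, 1.203 ± 0.059 with DMSO, and 0.593 ± 0.076 in CF (SD, n = 2 each). The ratio of Tbx5 to Gata4 was 0.515 ± 0.0089 in CM, 1.21 ± 0.021 with ZLN005, 1.17 ± 0.033 with GW501516, 1.38 ± 0.066 with DMSO, and 0.0192 ± 0.0013 in CF. Both ratios to Gata4 were lower in all 4 libraries with a compound than in both with DMSO. The ratio of Tbx5 to Mef2c was 1.17 ± 0.078 with ZLN005, 1.18 ± 0.022 with GW501516 and 1.14 ± 0.00091 with DMSO, and the ranges with ZLN005 and DMSO overlapped. The ratios are given as a description, and no test was run on them.

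Levels of different genes can be set side by side only per length, and here the order depended on the length used. Per kilobase of the longest coding sequence, the level in iCM with DMSO was 316 ± 18 for Mef2c, 288 ± 2.2 for Gata4 and 338 ± 19 for Tbx5 (CPM per kilobase, SD, n = 2). In CM it was 106 ± 3.4, 147 ± 4.9 and 64.7 ± 1.0, and in CF 64.6 ± 6.8, 119 ± 2.7 and 1.95 ± 0.086 for the 3 genes in that order. Per kilobase of all annotated exons, the level in iCM with DMSO was 29.2 ± 1.7 for Mef2c, 97.8 ± 0.74 for Gata4 and 112 ± 6.3 for Tbx5. The exon length of Mef2c is set by its many annotated transcripts, and which parts the delivered copies carry is not stated in the labels.

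Of the tested paralogs, 0 of 3 in the MEF2 family, 0 of 4 in the GATA family and 3 of 8 in the T-box family were higher in iCM with DMSO than in CF, beside 19.9% of all genes, so these counts were near the background. In the MEF2 family, 0 of 3 tested paralogs were called in iCM with DMSO against CF, where 39.3% of all genes were. The count was 0 of 3 at an unadjusted p of 0.05 as well, and by DESeq2 and limma. Mef2d, a broadly expressed relative, averaged 159 ± 10 CPM in CM, 110.5 ± 3.4 with ZLN005, 133 ± 6.0 with GW501516, 101 ± 3.2 with DMSO, and 98.3 ± 0.0057 in CF. It was higher with GW501516 than with DMSO (log2 change 0.42 ± 0.06, adjusted p = 0.00099) and did not pass with ZLN005 (0.10, adjusted p = 0.32). It was also higher in CM than in iCM with DMSO (0.72 ± 0.06, adjusted p = 1.2e-06), where 69.7% of all genes were called, and so was Mef2a (1.12 ± 0.15, adjusted p = 6.3e-05).

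In the GATA family 4 of 5 paralogs were tested, and 3 of them fell in iCM with DMSO relative to CF, beside 19.5% of all genes. Over the alternatives 1 to 3 fell, the 1 without DMSO replicate 1. Gata6, the relative of Gata4 in heart and gut, averaged 65.4 ± 1.7 CPM in iCM with DMSO against 101 ± 3.6 in CF, and fell by 0.63 on the log2 scale (SE 0.06, adjusted p = 7.4e-06). It was 119 ± 1.2 CPM in CM, above iCM with DMSO by 0.93 ± 0.06 (adjusted p = 1.4e-07). So CM held more Gata6 and less Gata4 than the induced cells did. Like Gata4, Gata6 was higher with ZLN005 than with DMSO (0.22 ± 0.06, adjusted p = 0.0272) and with GW501516 (0.20 ± 0.06, adjusted p = 0.0436). Each of these calls was lost when any library of the 2 groups compared, or either CM library, was left out. That with GW501516 was also lost without either ZLN005 library, under limma and with upper-quartile scaling in place of TMM. Gata5 was at 1.67 CPM in CM, 0.0968 in iCM with DMSO, and 0.553 in CF, and Gata2, known from blood and endothelial cells, fell by 0.81 in iCM with DMSO against CF (adjusted p = 0.0181). The Gata2 call was lost without CF replicate 1, which left 2 of the 4, without DMSO replicate 1, or with only the groups compared. That of Gata5 was lost without either DMSO library.

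In the T-box family 8 of the 15 paralogs in the table were tested, and in iCM with DMSO against CF 3 rose and 2 fell, beside 19.9% and 19.5% of all genes. Over the alternatives 1 to 3 rose, since some of them lost the calls of both Tbx20 and Tbx3, a repressor that acts in the conduction system. These were the fits without DMSO replicate 1, without either GW501516 library and with only the groups compared. Tbx3 had a log2 change of 0.66 ± 0.23 (adjusted p = 0.047) and lost its call under limma, the replicate block and without either CM library or CF replicate 2 as well. Tbx18, known from the epicardium and the sinus node, averaged 64.6 ± 3.4 CPM in CM, 375 ± 7.2 with ZLN005, 237 ± 1.2 with GW501516, 235 ± 1.0 with DMSO, and 86.3 ± 3.2 in CF. It rose in iCM with DMSO relative to CF (log2 change 1.45 ± 0.06, adjusted p = 1.2e-08) and was higher with ZLN005 than with DMSO (0.64 ± 0.06, adjusted p = 5.1e-05), but did not pass with GW501516 (0.04, adjusted p = 0.74). The 4 epicardial markers in the table summed to 92.2 to 93.3 CPM in CM, 217 to 224 with ZLN005, 188 to 195 with GW501516, 165 to 171 with DMSO, and 209 to 233 in CF, and their part was not tested. Tbx20, a cardiac T-box repressor and activator, was the T-box gene with the highest count, at 1089.5 ± 19 CPM in CM, 1612 ± 2.8 with ZLN005, 1454 ± 26 with GW501516, 1373 ± 16 with DMSO, and 1185 ± 67 in CF. Its rise in iCM with DMSO over CF was 0.22 ± 0.06 on the log2 scale (adjusted p = 0.0199). Tbx2, a repressor in the atrioventricular canal, fell by 0.80 (SE 0.14, adjusted p = 0.00091) in iCM with DMSO against CF.

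Among 27 tested partners and regulators of the 3 factors, 5 rose and 8 fell in iCM with DMSO relative to CF, a share of 48.1% called against 39.3% of all genes. Smarcd3, a subunit of cardiac chromatin remodelling complexes, averaged 107 ± 0.75 CPM against 44.9 ± 4.4 in CF (log2 change 1.26 ± 0.07, adjusted p = 2.8e-07). It stood at 115 ± 0.57 CPM in CM. Camk2d, a kinase that acts on class II histone deacetylases and so on MEF2, averaged 226 ± 4.6 CPM against 133 ± 1.1 in CF (0.78 ± 0.05, adjusted p = 2.6e-07). Zfpm2, the GATA4 cofactor also called FOG2, fell to 63.8 ± 1.1 CPM against 112 ± 5.0 in CF (log2 change -0.80 ± 0.06, adjusted p = 1.3e-06), and Nfatc4, a calcineurin effector, fell by 1.26 (adjusted p = 2.4e-05). Without CF replicate 1 the counts were 7 higher and 9 lower, without DMSO replicate 1 they were 3 and 7, and with only the groups compared 2 and 5.

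With the compounds, 4 of these 27 genes were higher and 2 lower with ZLN005, and 3 were higher and 1 lower with GW501516, than with DMSO. That is 22.2% called with ZLN005 and 14.8% with GW501516, beside 15.5% and 14.8% of all genes, so the GW501516 count was at the background share. Srf, the serum response factor that works with myocardin, averaged 61.9 ± 0.22 CPM with ZLN005 and 61.4 ± 3.6 with GW501516, against 39.1 ± 3.0 with DMSO. Its log2 change was 0.63 ± 0.08 (adjusted p = 0.00077) and 0.68 ± 0.08 (adjusted p = 0.0005). Camk2d was higher too, by 0.40 ± 0.04 with ZLN005 (adjusted p = 0.00027) and 0.27 ± 0.04 with GW501516 (adjusted p = 0.0032). Nfatc2 was the 1 gene lower with GW501516 (-3.16 ± 0.75, adjusted p = 0.019), with 20 and 14 counts against 204 and 185 with DMSO. The 2 genes lower with ZLN005 were Nfatc2, at 26 and 46 counts, and Myocd, at 263 and 409 counts against 521 and 474 with DMSO. By limma their changes with ZLN005 were -2.36 and -0.50, and none of these falls passed. Ppargc1a, the coactivator that ZLN005 is known for, was at 4.14 ± 0.51 CPM with ZLN005 and 2.80 ± 0.78 with GW501516, against 2.20 ± 0.28 with DMSO, and passed the test with ZLN005 (0.87 ± 0.18, adjusted p = 0.0096), though not by limma nor without replicate 1 of ZLN005 or of DMSO. The counts of partners moved with the libraries in the fit, to 9 higher and 3 lower with ZLN005 and 5 higher and 4 lower with GW501516 without CF replicate 1, and to 2 higher and 0 lower with either compound without DMSO replicate 1.

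In the comparison of CM with iCM given DMSO, 17 of the 27 were higher in CM and 4 lower, which is 77.8% called beside 69.7% of all genes (34.1% higher and 35.7% lower). Nkx2-5, the homeobox partner of GATA4 and TBX5, averaged 28.6 ± 1.8 CPM in CM, 0.12 with ZLN005, 0.12 with GW501516, 0.445 ± 0.11 with DMSO, and 0.26 ± 0.14 in CF. It was 66.5-fold higher in CM than in iCM with DMSO (log2 change 6.06 ± 0.40, adjusted p = 2.8e-07) and did not pass the test in iCM with DMSO against CF (0.78 ± 0.50, adjusted p = 0.26), though it did without CF replicate 2. Myocd, the gene of myocardin, averaged 126 ± 9.4 CPM in CM, 9.69 ± 0.094 in iCM with DMSO, and 14.0 ± 2.5 in CF. It was 13.6-fold higher in CM than in iCM with DMSO (3.77 ± 0.13, adjusted p = 1.9e-09). Both genes were low in cells whose Mef2c, Gata4 and Tbx5 counts exceeded those of CM.

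Most genes known as targets of MEF2 factors and GATA4 rose in iCM with DMSO against CF, while those of TBX5 went both ways. Of 15 tested MEF2 targets 9 rose and 3 fell, of 14 GATA4 targets 9 rose and 2 fell, and of 13 TBX5 targets 5 rose and 5 fell. The median log2 change was 2.13, 1.09 and 0.78 for the lists in that order, beside -0.01 over all genes, and 80%, 78.6% and 76.9% of their members were called against 39.3% of all genes. Without CF replicate 1 the medians were 1.97, 1.04 and 0.32. In the same order of lists, the medians over CF were 2.53, 0.77 and -0.39 in iCM with ZLN005. They were 2.84, 0.37 and -0.83 in iCM with GW501516, so the median of TBX5 targets was below 0 with both compounds. Some genes stand on several lists, Myh6 on those of MEF2 and GATA4 and Nppa on those of GATA4 and TBX5, and the lists hold 3 of the 5 cardiomyocyte markers. The summed cardiomyocyte and fibroblast markers moved in the same comparisons, and their part in these counts and medians was not tested.

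**Figure D4:**
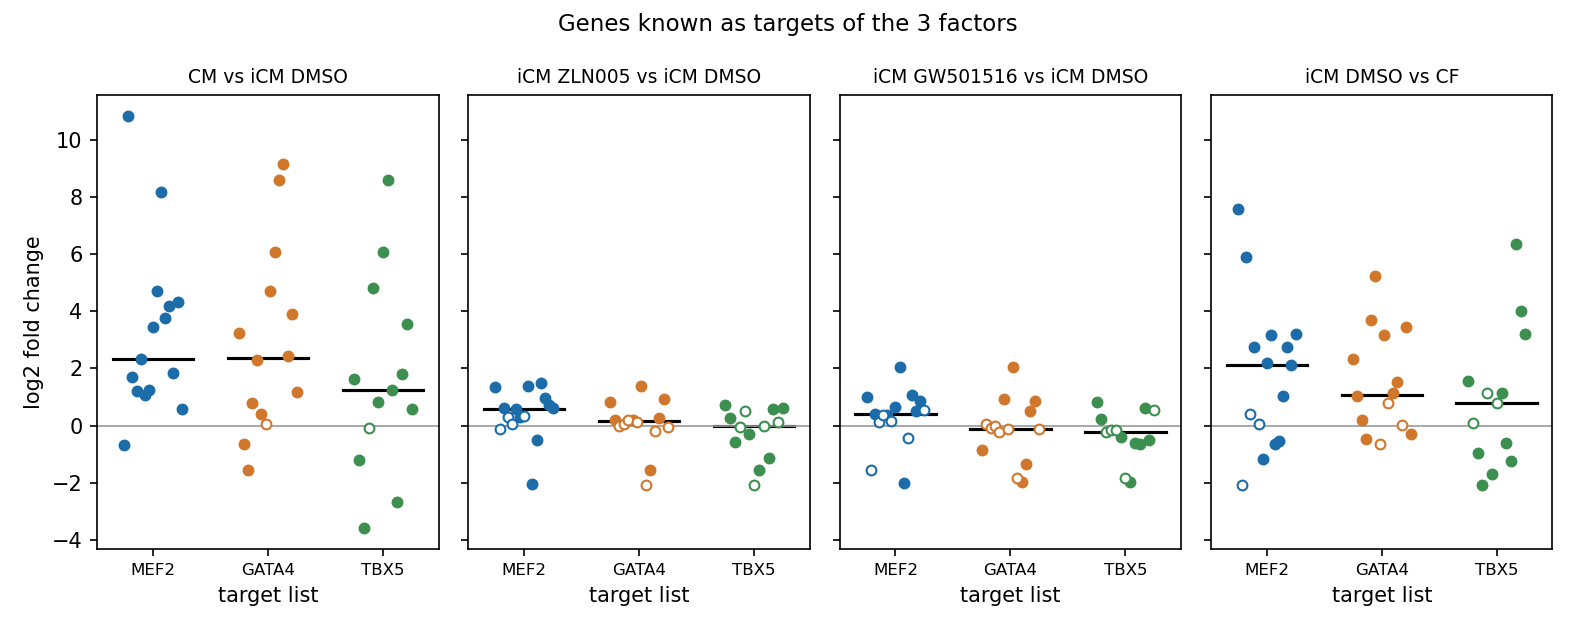
log2 fold change of known targets of MEF2 factors, GATA4 and TBX5, with a panel per comparison and a point per gene. Filled points passed the test at an adjusted p of 0.05, open points did not, and black lines mark the median of a list. The median of MEF2 targets is 2.34 for CM over iCM with DMSO and 2.13 for iCM with DMSO over CF.

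Among MEF2 targets, Abra, a gene of striated muscle, averaged 15.2 ± 1.4 CPM in CM, 65.4 ± 3.2 with ZLN005, 49.9 ± 2.2 with GW501516, 25.2 ± 0.036 with DMSO, and 0.13 ± 0.091 in CF. It was higher in iCM with DMSO than in CF by 7.58 ± 0.20 on the log2 scale (adjusted p = 4.7e-10) and lower in CM than in iCM with DMSO (-0.67 ± 0.11, adjusted p = 0.00028), the single MEF2 target of the list lower in CM. Des, the gene of desmin, averaged 562 ± 4.0 CPM in iCM with DMSO against 9.43 ± 1.9 in CF (5.90 ± 0.12, adjusted p = 1.1e-10). Myh6, the alpha myosin heavy chain, averaged 9281 ± 16 CPM in CM, 986 ± 53 with ZLN005, 1517 ± 24 with GW501516, 368 ± 10 with DMSO, and 40.7 ± 0.099 in CF. It differed by 3.19 ± 0.07 between iCM with DMSO and CF (adjusted p = 1.1e-10).

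Among GATA4 and TBX5 targets, Corin, a protease that activates natriuretic peptides, averaged 34.6 ± 1.1 CPM in CM, 27.3 ± 0.52 in iCM with DMSO, and 0.732 ± 0.062 in CF. The change in iCM with DMSO over CF was 5.22 ± 0.09 (adjusted p = 2.3e-11). Ryr2, the calcium release channel, averaged 940 ± 64 CPM in CM, 282 ± 17 in iCM with DMSO, and 3.44 ± 0.48 in CF, a change of 6.36 ± 0.11 in iCM with DMSO over CF (adjusted p = 2e-11). Gas1, a membrane protein of hedgehog signalling, fell to 38.9 ± 1.2 CPM against 164 ± 1.3 in CF (-2.07 ± 0.05, adjusted p = 4.3e-10), and Pcsk6, a proprotein convertase, fell to 79.1 ± 1.1 against 187 ± 10 CPM (-1.23 ± 0.06, adjusted p = 6e-08).

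Natriuretic peptide genes, which GATA4 and TBX5 are known to activate, stayed far below CM in the induced cells. Nppa averaged 4997 ± 278 CPM in CM, 4.88 ± 0.49 with ZLN005, 3.41 ± 0.26 with GW501516, 13.7 ± 1.8 with DMSO, and 6.21 ± 0.47 in CF. It was 383-fold higher in CM than in iCM with DMSO (log2 change 8.58 ± 0.12, adjusted p = 9e-12). Nppb averaged 902 ± 24 CPM in CM, 1.64 ± 0.11 in iCM with DMSO, and 0.569 ± 0.11 in CF. Myl2, the ventricular myosin light chain and a MEF2 target, was 287-fold higher in CM than in iCM with DMSO (8.16 ± 0.15, adjusted p = 2.7e-11). Over all, 14 of 15 MEF2 targets, 11 of 14 GATA4 targets and 9 of 13 TBX5 targets were higher in CM than in iCM with DMSO, where 34.1% of all genes were.

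With the compounds, targets of the factors moved in both directions. Of the MEF2 targets 9 were higher and 2 lower with ZLN005 than with DMSO, and 8 higher and 1 lower with GW501516, which is 73.3% and 60% called beside 15.5% and 14.8% of all genes. Their median log2 change was 0.57 and 0.41 in that order, beside -0.0004 and -0.005 over all genes. Over the alternatives the count of higher MEF2 targets was 6 to 11 with ZLN005 and 4 to 10 with GW501516, while the median stayed at 0.53 to 0.60 and 0.38 to 0.47. Nr4a1, an orphan nuclear receptor, averaged 50.6 ± 0.19 CPM with ZLN005 and 36.8 ± 0.93 with GW501516, against 17.7 ± 0.63 with DMSO (changes of 1.48 ± 0.08 and 1.08 ± 0.08, adjusted p = 1.5e-06 and 1.4e-05). Myh6 was 2.62-fold higher with ZLN005 and 4.196-fold with GW501516 (1.39 ± 0.06 and 2.07 ± 0.06, adjusted p = 5.1e-07 and 2.2e-08). Myl2 went the other way, at 1.32 ± 0.20 and 1.297 ± 0.46 CPM with the compounds against 5.34 ± 0.057 with DMSO (-2.02 ± 0.21 and -2.01 ± 0.22, adjusted p = 0.00015 and 0.00022).

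Of the 14 GATA4 targets 6 were higher and 1 lower with ZLN005, and 4 higher and 3 lower with GW501516. Of the 13 TBX5 targets 4 were higher and 4 lower with ZLN005, and 3 higher and 5 lower with GW501516. The shares called were 50% of the GATA4 targets and 61.5% of the TBX5 targets with either compound, beside 15.5% of all genes with ZLN005 and 14.8% with GW501516. Over the alternatives the GATA4 targets counted as higher were 3 to 7 with ZLN005, and those counted as lower were 3 to 7 with GW501516, the 7 without CF replicate 1. Nppa fell with both compounds relative to DMSO (-1.53 ± 0.12 with ZLN005 and -1.98 ± 0.13 with GW501516, adjusted p = 2.7e-05 and 8.5e-06), while Tnni3, the cardiac troponin I gene, rose (0.94 ± 0.10 and 0.87 ± 0.10, adjusted p = 0.00017 and 0.00027). Atp2a2, the calcium pump of the sarcoplasmic reticulum, rose by 0.74 ± 0.05 and 0.82 ± 0.05 (adjusted p = 1.3e-05 and 7.3e-06). Adora1, an adenosine receptor, rose to 8.80 ± 0.37 CPM with ZLN005 and fell to 2.66 ± 0.24 with GW501516, against 4.84 ± 0.095 CPM with DMSO (0.83 ± 0.10 and -0.84 ± 0.11, adjusted p = 0.00036 and 0.0006). The summed macrophage markers were lower and the cardiomyocyte markers higher with both compounds than with DMSO, as given above, and their part in these changes was not tested.

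Genes next to the 3 factors on the chromosome were looked up in RefSeq, keeping the nearest 2 with counts on each side, a rule narrowed after the gene table was seen. Around Gata4, Blk, the gene of a B-lymphoid tyrosine kinase at chr14:63372837-63417187, was higher in all iCM groups than in CF, as Gata4 was. It stood at 38.0 and 33.0 CPM in CM, 40.5 and 41.0 with ZLN005, 35.4 and 39.2 with GW501516, 20.3 and 20.0 with DMSO, and 0.590 and 0.759 in CF. All iCM and CM libraries were above both CF libraries. The log2 change was 4.90 ± 0.13 in iCM with DMSO over CF (adjusted p = 6.8e-10), 0.98 ± 0.09 with ZLN005 over DMSO (adjusted p = 8.8e-05) and 0.91 ± 0.09 with GW501516 over DMSO (adjusted p = 0.00015). Blk differed from Gata4 in CM, where it was higher than in iCM with DMSO by 0.88 ± 0.09 (adjusted p = 1.1e-05).

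Gm4151, a predicted gene on the same side as Blk, was also higher in iCM with DMSO than in CF (1.13 ± 0.30, adjusted p = 0.0125), but it failed to pass with the groups compared alone or when either replicate 1 of DMSO or replicate 1 of CF was left out, at adjusted p-values of 0.064, 0.059 and 0.067 for these 3 cases. On the other side of Gata4, Neil2, a DNA glycosylase gene, did not pass the test in iCM with DMSO against CF (0.23 ± 0.16, adjusted p = 0.29). Fdft1, the squalene synthase gene, fell to 19.4 ± 1.1 CPM with ZLN005 and rose to 52.4 ± 1.2 with GW501516, against 37.9 ± 0.59 with DMSO (-1.003 ± 0.056 and 0.49 ± 0.05, adjusted p = 2.2e-06 and 0.00022). It was at 50.1 ± 1.5 CPM in CM and 62.4 ± 2.7 in CF.

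Beside Tbx5, the long noncoding RNA gene Gm5563 at chr5:119805327-119831986 had its high values in CM. It ends before the GENCODE start of Tbx5 but lies within the RefSeq interval of that gene, chr5:119796514-119885220, so reads in the overlap are uncertain. Gm5563 had 276 and 201 counts in CM (5.87 and 4.94 CPM), 10 and 14 in iCM with ZLN005, 6 and 2 with GW501516, 17 and 15 with DMSO, and 28 and 20 in CF. It was 18.03-fold higher in CM than in iCM with DMSO (log2 change 4.17 ± 0.33, adjusted p = 1.15e-06) and 14.5-fold higher in CM than in CF (3.86 ± 0.32, adjusted p = 1.4e-06). It did not pass the test in iCM with DMSO against CF (-0.31 ± 0.35, adjusted p = 0.53), where Tbx5 was 174-fold higher. Tbx5 and Gm5563 were thus both high in CM, while in iCM Tbx5 was above its CM level and Gm5563 averaged 0.0965 to 0.311 CPM, beside 0.391 CPM in CF.

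**Figure D5:**
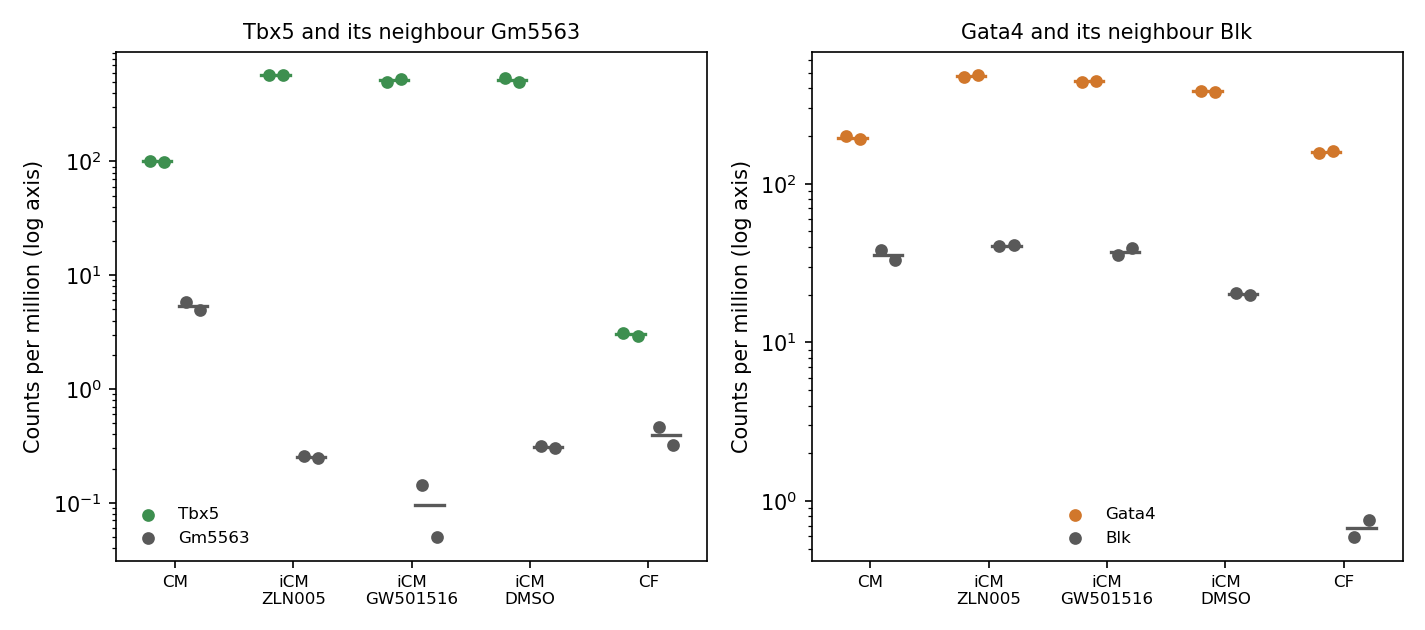
Tbx5 with its neighbour Gm5563 and Gata4 with its neighbour Blk, in CPM on a log axis, with a point per library and a line at the mean of a group. Gm5563 is at 4.94 CPM or more in CM and at 0.459 CPM or less in all other libraries, and Blk is at 0.759 CPM or less in CF and at 20.0 CPM or more in all others.

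Rbm19, a gene of ribosome assembly at higher coordinates than Tbx5, fell by 0.31 (SE 0.09, adjusted p = 0.0247) in iCM with DMSO against CF. This call was lost without DMSO replicate 2 and with only the groups compared (adjusted p = 0.098). At lower coordinates, the neighbours of Tbx5 were Tbx3, described above, and a long noncoding RNA gene with at most 4 counts per library. Those of Mef2c were Cetn3 (a centrin gene) at chr13:81780636-81797155 and Mblac2 at chr13:81711417-81753275. Neither passed the test in iCM with DMSO against CF (Cetn3 -0.11 ± 0.06, adjusted p = 0.14, Mblac2 0.08 ± 0.12, adjusted p = 0.61), where Mef2c rose 4.93-fold. The neighbours of Mef2c at higher coordinates, both long noncoding RNA genes, had at most 28 counts per library.

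A search for similar genes covered 12175 tested genes with a mean of at least 1 CPM, without those whose symbols mark predicted genes or clones. The genes whose levels most resembled each factor over the 10 libraries were ranked by Pearson's r of log2 CPM (prior count 2). For Mef2c they were Hs6st1 (r = 0.995), Slco3a1, Zfp715, Esr2 and Afdn. For Gata4 they were Map3k7cl (r = 0.999), Adamtsl5, Lims2, Rxrg and Wnk4, and for Tbx5 Armh4 (r = 0.998), Cnksr1, Mustn1, Ccdc141 and Slco5a1. Between the factors r was 0.983 for Mef2c with Gata4, 0.944 for Mef2c with Tbx5 and 0.910 for Gata4 with Tbx5. The 10 libraries are 5 groups of 2, so these values describe the pattern over groups.

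Of 8 genes known to limit or aid reprogramming by MGT, 4 rose and 1 fell in iCM with DMSO against CF, which is 62.5% called beside 39.3% of all genes. Over the alternatives 2 to 4 rose and 1 to 2 fell, with 2 higher without DMSO replicate 1 and with only the groups compared. Tgfbr1, a receptor of the TGF-beta pathway known as a barrier, averaged 192 ± 3.8 CPM against 92.8 ± 9.5 in CF (1.06 ± 0.05, adjusted p = 8.4e-08). Snai1, a repressor known as a barrier, fell to 16.0 ± 1.1 against 40.3 ± 1.5 CPM in CF (-1.33 ± 0.10, adjusted p = 2.4e-06). With ZLN005 over DMSO 1 of the 8 was higher and 1 lower, 25% called beside 15.5% of all genes. Snai1 was the lower one, at 10.1 ± 1.1 CPM (-0.68 ± 0.11, adjusted p = 0.0021), and did not pass the test with GW501516 (-0.14 ± 0.11, adjusted p = 0.44). Tgfbr1 was the higher one (0.21 ± 0.05, adjusted p = 0.0257), a call lost when any library of the 2 groups was left out. In CM, Snai1 was higher (0.57 ± 0.10, adjusted p = 0.0006) and Tgfbr1 lower (-0.40 ± 0.05, adjusted p = 5.9e-05) than in iCM with DMSO.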

How the data were processed

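The table deposited by the authors holds whole-number counts per gene for 10 libraries. The tools named are Trimmomatic 0.36, HISAT2, SAMtools and featureCounts of Subread 1.5.1, with the build mm10, per the submitters' processing notes. The strand setting, annotation and treatment of reads with several placements are not named there. Groups were read from the sample titles, which name cardiomyocytes where other label fields repeat the fibroblast entries.

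Counts were analysed with the quasi-likelihood test of edgeR 4.0.16 in R 4.3.3, with TMM scaling and edgeR's default filter (15740 of 21513 genes kept). A single fit held all 5 groups, and p-values were adjusted by Benjamini and Hochberg over all genes tested in each comparison, with calls at 0.05. Standard errors and 95% intervals come from that fit, and levels are CPM, counts per 1000000 counts of the library. DESeq2 1.42.0 and limma 3.58.1 were alternatives, and the script was tested on simulated data. Figures were drawn with matplotlib 3.10.9. Depth was 39065969 to 61886463 counts per library, and the 2 libraries per group limit precision.

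The genes and lists were chosen with earlier results of these data known. Beside the 3 genes, the text may name their tested paralogs, up to 4 called genes with the smallest p per list in iCM with DMSO against CF, each compound against DMSO and CM against iCM with DMSO, the chromosomal neighbours, and the 5 genes most like each factor. Some symbols on the lists have no row in the table and were not analysed here, and 1 gene that the rule names is not reported here.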

Additional observations from a re-analysis of the deposited data

How the results depend on the processing

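The changes of Mef2c, Gata4 and Tbx5 between iCM and CF, CM and CF, and CM and iCM kept their direction and call under all alternatives that gave a value. Gata4 with ZLN005 over DMSO did so too, at 0.26 to 0.33. Leaving out a library of those groups gave Gata4 with GW501516 over DMSO as 0.225 to 0.246, and each of those 4 cases lost the call. Tbx5 with ZLN005 over DMSO became a call with only the groups compared (0.101), without either CF library (0.102 and 0.106) and, in a setting added after the data were seen, without both (0.0993), while leaving out 1 library in turn gave 0.0489 to 0.162. Tbx5 with ZLN005 over GW501516 did with only the groups compared (0.102). The counts of called genes were 4477 (ZLN005 over DMSO), 4342 (GW501516 over DMSO) and 2413 (ZLN005 over GW501516) with only the groups compared, and 4250, 4226 and 2158 without both CF libraries, against 2437, 2323 and 796 in the fit of all groups. Leaving out 1 library gave 1092 to 4271, 955 to 4212 and 344 to 2145. Nfatc2 in iCM with DMSO over CF changed sign without CF replicate 1 (1.10, adjusted p = 3.3e-05 by edgeR) and was -1.49 without CF replicate 2. The cause was not tested.

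Deviations of same-numbered libraries of different groups correlated at -0.003 to 0.040, so no shift shared by replicate number was seen. Such values cannot tell whether same-numbered libraries have a common origin, which the labels do not state. With a replicate block the counts were 2252, 2235 and 718, and no call of the 3 genes changed (Gata4 0.29 with ZLN005 and 0.24 with GW501516, adjusted p = 0.0074 and 0.0198 by edgeR). The lowest count of the 3 genes was 182 (Tbx5 in CF). Some other genes named above rest on far fewer. Gata5 had 6 and 4 counts in iCM with DMSO, Nkx2-5 had 8 and 2 with each compound, and Abra had 4 and 12 in CF.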
